A study of Mus musculus with 6 samples.

Results

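Homeostatic microglia genes are transcripts that resting microglia carry at high levels, and 9 of them were followed here: P2ry12, Tmem119, Cx3cr1, Csf1r, Sall1, Siglech, Trem2, Tyrobp and Aif1. They were chosen by symbol from the 55487 genes of the deposited table, with earlier results of these data known. Each symbol gave 1 gene. All 9 passed the filter on low counts, among 20459 genes tested. Microglia are the resident macrophages of the retina and brain. They arise from yolk sac progenitors, depend on CSF1R signalling to survive, and hold their resting state through TGF-beta signalling and the transcription factor SALL1. In the growing retina they lie along the vascular front, where they are known to contact endothelial tip cells.

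RNA-seq was performed on vascular endothelial cells (VECs) that were sorted from P7.5 mouse retinas to ask which endothelial transcripts depend on the clock gene Bmal1. The control group held 3 libraries of tdTomato FL/+;Pdgf-icreER genotype, and the Bmal1;CKO group held 3 libraries of Bmal1 FL/FL;tdTomato FL/+;Pdgf-icreER genotype. Both groups thus carried the tdTomato reporter and Pdgf-icreER, a tamoxifen-inducible Cre with GFP expressed from a Pdgfb transgene, and both were given tamoxifen on P0.5 to P2.5. Only cells positive for both GFP and tdTomato were collected. The sort selected on these reporters alone, and the 9 genes are markers of a cell type other than the sorted one. In bulk RNA, fewer cells of a type and less RNA per cell cannot be told apart. The columns of the table are called control libraries 1 to 3 and Bmal1;CKO libraries 4 to 6, and were not matched to single animals. Each genotype rests on 1 Cre line, whose transgene is also the source of the GFP used for sorting.

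The 6 libraries held 71145068 to 104017800 reads on genes, and the levels below are normalized counts, which are reads divided by the size factor of the library. Arntl, the gene that encodes BMAL1, had 1700, 3489 and 2928 normalized counts in control libraries 1, 2 and 3 and 1779, 2747 and 2415 in Bmal1;CKO libraries 4, 5 and 6. The groups overlapped, with a log2 fold change (Bmal1;CKO minus control) of -0.19 (SE 0.36, limma-trend adjusted p = 0.924). A count over the whole gene does not resolve the floxed exon, so this value does not check the labels. Of the labelled cell type, all 12 endothelial genes examined were detected in every library, led per kb of exon by the junction gene Cldn5 at 60099 to 201094 normalized counts, then the adhesion gene Esam and the glucose transporter gene Slc2a1.

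The 9 genes lie on 7 chromosomes of GRCm38. P2ry12 (ENSMUSG00000036353) is at chr3:59216272-59262871 on the minus strand, Tmem119 (ENSMUSG00000054675) at chr5:113793729-113800516 on the minus strand and Cx3cr1 (ENSMUSG00000052336) at chr9:119901616-120069879 on the minus strand. Csf1r (ENSMUSG00000024621) is on the plus strand, at a position given with its values, and Sall1 (ENSMUSG00000031665) is at chr8:89027235-89044162 on the minus strand. Siglech (ENSMUSG00000051504) at chr7:55768178-55778925 and Tyrobp (ENSMUSG00000030579) at chr7:30413760-30417585 share a chromosome and the plus strand. Trem2 (ENSMUSG00000023992) at chr17:48346401-48354147 on the plus strand and Aif1 (ENSMUSG00000024397) at chr17:35170991-35176068 on the minus strand also share one. All are protein coding, and a value is the sum over the exons of the gene. The exons of P2ry12 share 9 bases with Med12l, those of Cx3cr1 share 78 bases with the antisense gene Gm33858 and those of Csf1r share 873 bases with Hmgxb3, each on the opposite strand. The use of strand in the counting is not given in the sources used here, so reads from these stretches cannot be told apart.

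BMAL1 with its partner CLOCK binds the E-box letters CACGTG, and PU.1, the factor that drives myeloid genes, binds letters such as GAGGAAGT. Both were searched on both strands in RefSeq promoters of GRCm38.p6, windows of 300 bases that run from 250 before to 50 after a start site. Windows were given for 6 of the 9 genes (P2ry12, Cx3cr1, Sall1, Siglech, Trem2 and Aif1), 8 windows in all since Sall1 has 3. The E-box stood in 2 of the 8, and in 7.15% of the 32851 promoters of all genes. PU.1 letters stood in 0 of the 8 and in 3.2% of all promoters. For PU.1 only the exact letters were searched, and in so few windows a count of 0 does not show that its sites are absent. The windows with an E-box are shown because they hold the letters that BMAL1 recognizes. The E-box is in capitals, at position -228 of P2ry12 and -56 of Siglech, counted from the start site.
P2ry12, chr3:59262936-59263235, minus strand: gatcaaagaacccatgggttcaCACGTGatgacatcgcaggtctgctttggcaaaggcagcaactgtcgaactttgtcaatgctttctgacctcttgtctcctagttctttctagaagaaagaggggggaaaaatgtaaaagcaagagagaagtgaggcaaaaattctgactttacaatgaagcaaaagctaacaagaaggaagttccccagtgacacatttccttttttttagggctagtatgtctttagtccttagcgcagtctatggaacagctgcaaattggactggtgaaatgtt
Siglech, chr7:55767934-55768233, plus strand: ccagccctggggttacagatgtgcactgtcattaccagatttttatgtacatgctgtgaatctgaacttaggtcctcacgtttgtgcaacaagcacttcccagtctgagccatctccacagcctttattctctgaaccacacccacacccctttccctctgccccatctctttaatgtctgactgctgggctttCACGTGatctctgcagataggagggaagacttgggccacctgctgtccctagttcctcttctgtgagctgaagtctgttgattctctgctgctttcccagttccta
These matches are letters in a window and not measured binding. Bmal1 was deleted with an endothelial Cre, and whether cells that express these genes lost it was not tested.

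None of the 9 homeostatic genes differed between Bmal1;CKO and control by the test. At an adjusted p under 0.05 (limma-trend, Benjamini-Hochberg over all tested genes) 0 of 9 were called, against 0% of the 20459 genes tested (0 genes also by edgeR and 67 by DESeq2, none of them among the 9). At an unadjusted p under 0.05 the count was also 0 of 9, against 4.92% of all genes, and the groups did not overlap for 0 of 9, against 11.2% of all genes. The fold change was above 0, that is, higher in Bmal1;CKO, for 8 of 9, against 56.6% of all genes. That count was 7 by edgeR and 6 after scaling to 20 other homeostatic microglia genes. Genes read in the same 6 libraries can move together, so this count and those of the lists below are not counts of independent observations. The median log2 fold change was 0.35 over the 9 genes and 0.11 over all tested genes, and by edgeR these were 0.18 and -0.03.

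The receptors that read the surroundings of the cell came in at high levels. P2ry12, an ADP receptor that steers microglial processes, had 41381, 32939 and 40824 normalized counts in control libraries 1 to 3 and 40215, 39479 and 50379 in Bmal1;CKO libraries 4 to 6. Control library 2 was lowest and Bmal1;CKO library 6 highest, and the other 4 lay close together. The log2 fold change was 0.17 (SE 0.25, 95% interval -0.41 to 0.76, limma-trend adjusted p = 0.904). It was 0.07 when control library 2 was left out and 0.06 when Bmal1;CKO library 6 was. P2ry12 was the steadiest of the 9, with a highest library 1.53 times the lowest.

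Cx3cr1, the receptor for fractalkine, had 150814, 56491 and 124580 normalized counts in control and 173617, 163027 and 138568 in Bmal1;CKO. The groups overlapped only through control library 1, which lay above Bmal1;CKO library 6. This was the largest fold change of the 9 at 0.63 on the log2 scale (SE 0.43, 95% interval -0.37 to 1.63, limma-trend adjusted p = 0.883), and an exact permutation test gave p = 0.2. The smallest p that 3 against 3 libraries allow is 0.1. For Cx3cr1 the value was 0.20 without control library 2 and 0.91 without control library 1, where that of Trem2 was larger at 1.02.

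Csf1r (chr18:61100598-61132149), the receptor for CSF1 and IL-34 on which microglial survival depends, had 100484, 39021 and 102929 normalized counts in control and 103245, 96558 and 118104 in Bmal1;CKO. Control library 2 stood far below the other 5, which were close together. For Csf1r the log2 fold change was 0.51 (SE 0.43, 95% interval -0.48 to 1.51, limma-trend adjusted p = 0.883). Without control library 2 it was 0.05.

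Siglech, a sialic acid-binding lectin that signals through TYROBP, had 34102, 16992 and 22495 normalized counts in control and 39908, 27031 and 27379 in Bmal1;CKO. Control library 1 lay within the range of the Bmal1;CKO libraries and the other 2 controls below it. Siglech had a log2 fold change of 0.39 (SE 0.33, 95% interval -0.37 to 1.16, limma-trend adjusted p = 0.883). It was 0.16 without control library 2, 0.66 without control library 1 and 0.21 without Bmal1;CKO library 4.

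Tmem119, a membrane protein used to tell microglia from other macrophages, had 60414, 18130 and 46317 normalized counts in control and 59127, 36546 and 41435 in Bmal1;CKO. The controls spanned the whole range of the Bmal1;CKO libraries. Its log2 fold change was 0.27 (SE 0.47, 95% interval -0.81 to 1.36, limma-trend adjusted p = 0.911), and it was -0.24 without control library 2, 0.63 without control library 1 and 0.07 without Bmal1;CKO library 4.

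Sall1, the transcription factor that holds microglial identity, had 8058, 2273 and 4030 normalized counts in control and 5661, 5185 and 5225 in Bmal1;CKO. The 3 Bmal1;CKO libraries were nearly alike and sat between the control extremes, with means of 4787 ± 2966 (SD, n = 3) for the controls against 5357 ± 264 (SD, n = 3) for Bmal1;CKO. For Sall1 the log2 fold change was 0.35 (SE 0.44, 95% interval -0.67 to 1.37, limma-trend adjusted p = 0.895), -0.09 without control library 2 and 0.82 without control library 1.

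Trem2, a receptor for lipids and apolipoproteins, had 209842, 71124 and 70617 normalized counts in control and 222082, 135178 and 98494 in Bmal1;CKO. One library of each group was high, control 1 and Bmal1;CKO 4, and the remaining controls were the lowest of all. The log2 fold change of Trem2 was 0.50 (SE 0.53, 95% interval -0.74 to 1.73, limma-trend adjusted p = 0.886), and without control library 1 it was 1.02. Leaving out Bmal1;CKO library 4, control library 3 or control library 2 gave 0.18, 0.23 and 0.24.

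Tyrobp, the adaptor protein (DAP12) that carries the TREM2 signal into the cell, had 247219, 101687 and 70468 normalized counts in control and 213468, 120658 and 85631 in Bmal1;CKO. Control library 1 and Bmal1;CKO library 4 were again the high ones, and the group means were 139791 ± 94336 (SD, n = 3) and 139919 ± 66059 (SD, n = 3). Tyrobp had a log2 fold change of 0.11 (SE 0.56, 95% interval -1.19 to 1.40, limma-trend adjusted p = 0.976). It was -0.28 when control library 3 was left out and 0.62 when control library 1 was.

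Aif1, which encodes the calcium-binding protein IBA1 that is stained to show microglia, had 81285, 31851 and 18072 normalized counts in control and 49254, 29614 and 21448 in Bmal1;CKO. Its controls held both the highest and the lowest library. Aif1 was the gene with a fold change below 0, at -0.19 on the log2 scale (SE 0.57, 95% interval -1.51 to 1.13, limma-trend adjusted p = 0.951), and it was 0.39 without control library 1, -0.69 without control library 3, 0.08 without Bmal1;CKO library 6 and -0.52 without Bmal1;CKO library 4.

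**Figure D1:**
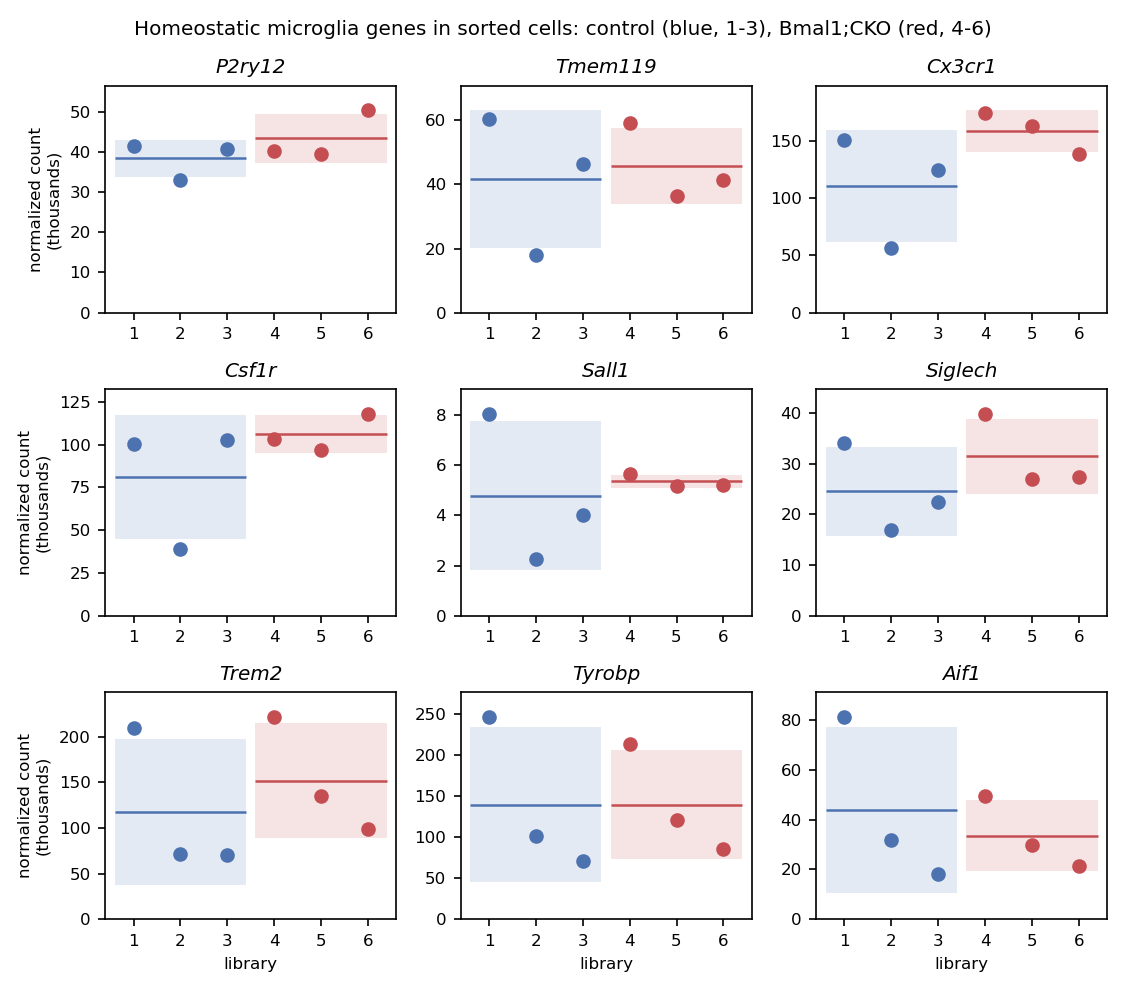
Normalized counts (divided by 1000, from 0) of the 9 genes in each library, control libraries 1 to 3 in blue and Bmal1;CKO libraries 4 to 6 in red, with the mean and SD of each group. For all 9 genes the groups overlap, and control library 2 is the lowest for P2ry12, Tmem119, Cx3cr1, Csf1r, Sall1 and Siglech.

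The plot of the counts shows that the controls varied more. The SD of log2 values was larger among the controls for 8 of 9 genes, Sall1 most of all at 0.91 against 0.07, while P2ry12 had 0.18 against 0.20. Pooled over both groups it ran from 0.19 for P2ry12 to 0.88 for Aif1, with a median of 0.65 for the 9 genes and 0.67 for all tested genes. The median of all tested genes includes genes with few reads, and the spread of genes at like levels was not compared.

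**Figure D2:**
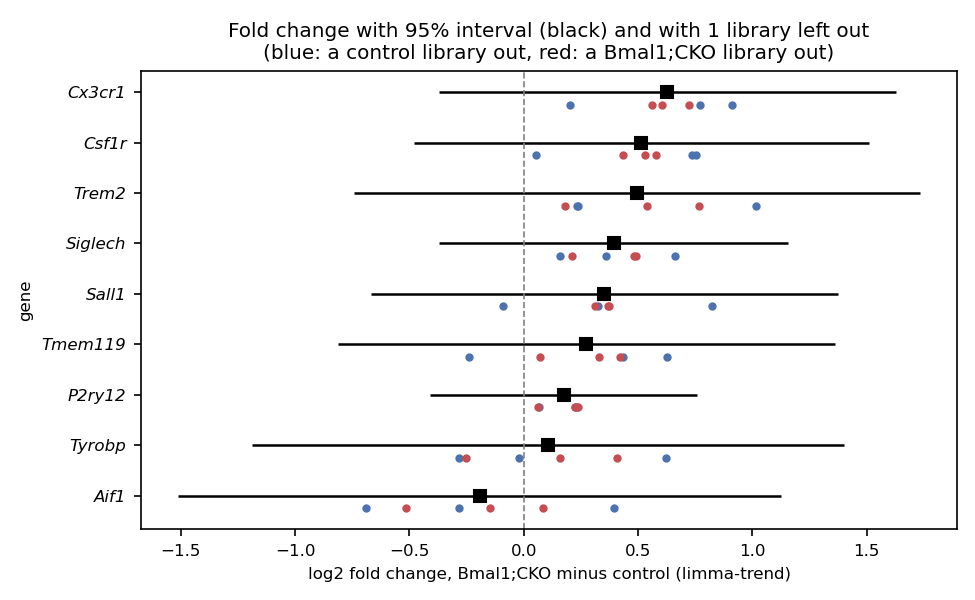
Log2 fold change of Bmal1;CKO minus control by limma-trend for each of the 9 genes, with its 95% interval in black and the values with 1 library left out in blue (a control library) or red (a Bmal1;CKO library). All 9 intervals cover 0, and single libraries move the values widely, as for Tmem119 (-0.24 without control library 2, 0.63 without control library 1) and Aif1 (-0.69 without control library 3, 0.39 without control library 1).

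The plot of fold changes shows how far single libraries carry them. The median over the 9 genes was 0.05 without control library 2 and 0.66 without control library 1. Without control library 1, 2 of the 9 (Sall1 and Trem2) had an unadjusted p under 0.05 by limma-trend. Over all tested genes such genes numbered 1746 in that fit, against 1007 with all 6 libraries. With any library left out, 0 of 9 passed the adjusted threshold.

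Levels between genes were compared per kb of the principal transcript, as the mean of 6 libraries. Tyrobp was highest at 247970 normalized counts per kb, then Trem2 at 123673, Aif1 at 44100, Cx3cr1 at 29939, Csf1r at 19866, Tmem119 at 19474, P2ry12 at 17436, Siglech at 13089 and Sall1 at 963. The adaptor and the receptor it serves led, and the transcription factor was far below the surface proteins. Neighbours in this order had overlapping ranges over libraries except Siglech and Sall1. Tyrobp stood above Trem2, and Cx3cr1 above Csf1r, in 6 of 6 libraries, but Aif1 above Cx3cr1 and Tmem119 above P2ry12 in 3 of 6. With the merged length of all annotated exons Cx3cr1 moved to the second place, ahead of Trem2.

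The genes fell into patterns that set libraries of the same genotype apart. As deviations from the mean of the 6 libraries on the log2 scale, Trem2, Tyrobp and Aif1 were high in control library 1 (0.80, 0.98 and 1.27) and Bmal1;CKO library 4 (0.88, 0.77 and 0.55). All 3 were low in control library 3 (-0.78, -0.83 and -0.90) and Bmal1;CKO library 6 (-0.30, -0.55 and -0.65). Tmem119, Cx3cr1, Csf1r and Sall1 were lowest in control library 2 (-1.17, -1.17, -1.18 and -1.06). The patterns were not separate, since Trem2 was also low in control library 2 (-0.76). Sall1 (0.77) and Tmem119 (0.57) were also high in control library 1, and Tmem119 in Bmal1;CKO library 4 (0.54).

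The former 3 have the shortest principal transcripts of the 9, at 1088, 564 and 875 bases, and the other 6 have 2138 to 5265. Over all 902 tested protein-coding genes with a principal transcript under 1000 bases, the median deviation in libraries 1 to 6 was 0.57, 0.36, -0.51, 0.29, -0.08 and -0.41. Over the 7284 genes of 3000 bases or more it was -0.13, 0.02, 0.25, -0.09, 0.07 and 0.24. The median of the short genes was thus high in control library 1 and low in control library 3 and Bmal1;CKO library 6, as Tyrobp and Aif1 were. In control library 2 it was 0.36, while Tyrobp was at -0.30 and Aif1 at -0.08. Trem2, at 1088 bases, belongs to a length class (1000 to 3000 bases, 6471 genes) whose medians stayed between -0.08 and 0.17. The part of transcript length in the pattern was not tested. The length correction given with the other settings used the merged length of all annotated exons, 4946 bases for Trem2, and not the principal transcript.

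**Figure D3:**
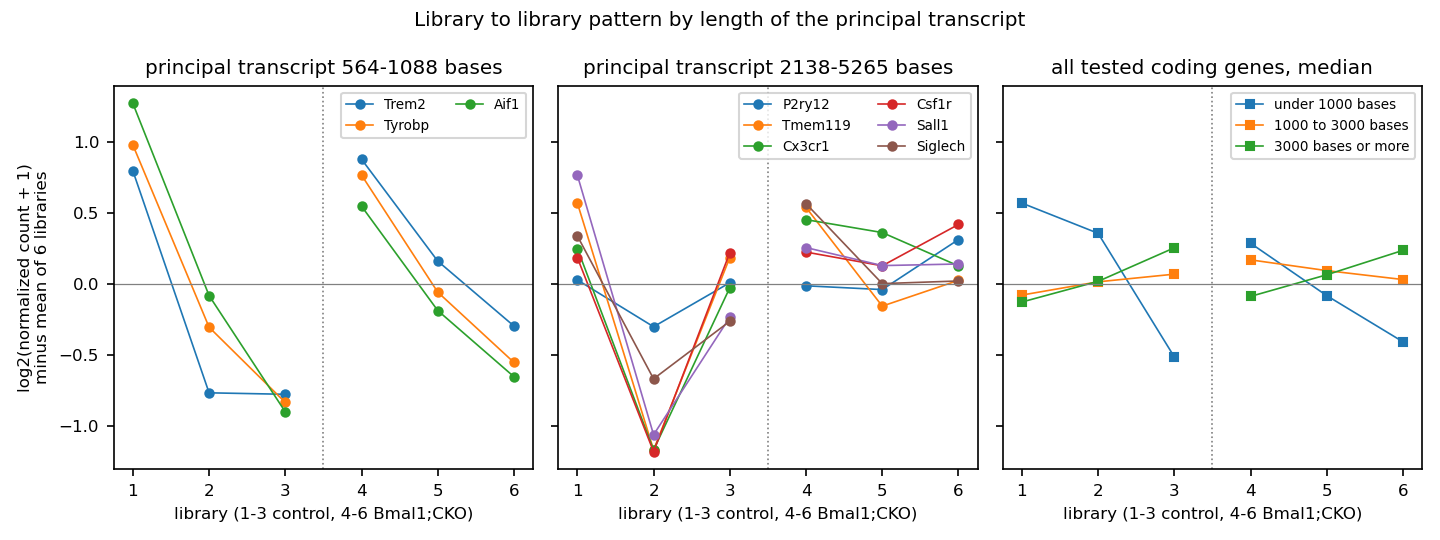
Deviation of log2(normalized count + 1) from the mean of the 6 libraries, by library (1 to 3 control, 4 to 6 Bmal1;CKO), for the 3 genes with short principal transcripts, the other 6, and the medians of all tested coding genes in 3 length classes. Aif1 runs from 1.27 in control library 1 to -0.90 in control library 3, and the median of the 902 short genes from 0.57 to -0.51. Lines only join the values of a gene within a genotype.

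Because of these patterns, ratios between homeostatic genes were not constant across the libraries. Tyrobp over Csf1r was 2.46, 2.61 and 0.685 in control libraries 1 to 3 and 2.07, 1.25 and 0.725 in Bmal1;CKO libraries 4 to 6. Both genotypes held high and low ratios. Over the 6 libraries, which share their depth and scaling among all genes, Pearson's r was 0.97 between Tyrobp and Aif1, 0.93 between Trem2 and Tyrobp and 0.93 between Cx3cr1 and Csf1r. It was lowest between P2ry12 and Aif1 at -0.19. Siglech lay nearest to the mean of the other 8 (r = 0.96) and P2ry12 farthest (r = 0.41).

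The genes whose values followed the mean of the 9 most closely over the 6 libraries were sought among 9232 tested genes with a mean of at least 1000 normalized counts, where the median r was 0.11. The 10 highest were Tmub1 (r = 0.999), Rnf25, Akr7a5, Lrrc25, Mgll, Cd68, H2-DMb1, Yipf3, Fbxo17 and Rnase4 (r = 0.987). Cd68 and Lrrc25 are myeloid genes, H2-DMb1 acts in MHC class II loading, and Mgll encodes monoacylglycerol lipase. With 6 libraries and this many genes, such coefficients only order the genes.

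The level of the set as a whole was high for cells sorted as endothelial. The 9 genes took 0.870%, 0.497% and 0.673% of all reads on genes in control libraries 1 to 3, and 0.906%, 0.762% and 0.762% in Bmal1;CKO libraries 4 to 6. Their summed normalized counts, with those of the 12 endothelial genes, gave a ratio of 2.44, 1.64 and 2.42 in control and 4.20, 5.17 and 2.23 in Bmal1;CKO. In every library the sum over 9 microglia genes was thus larger than that over 12 endothelial genes, and the groups overlapped through Bmal1;CKO library 6. Libraries 4 and 5 had the highest ratios and library 5 the lowest endothelial sum (126399, against 206357 to 383183 in control).

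**Figure D4:**
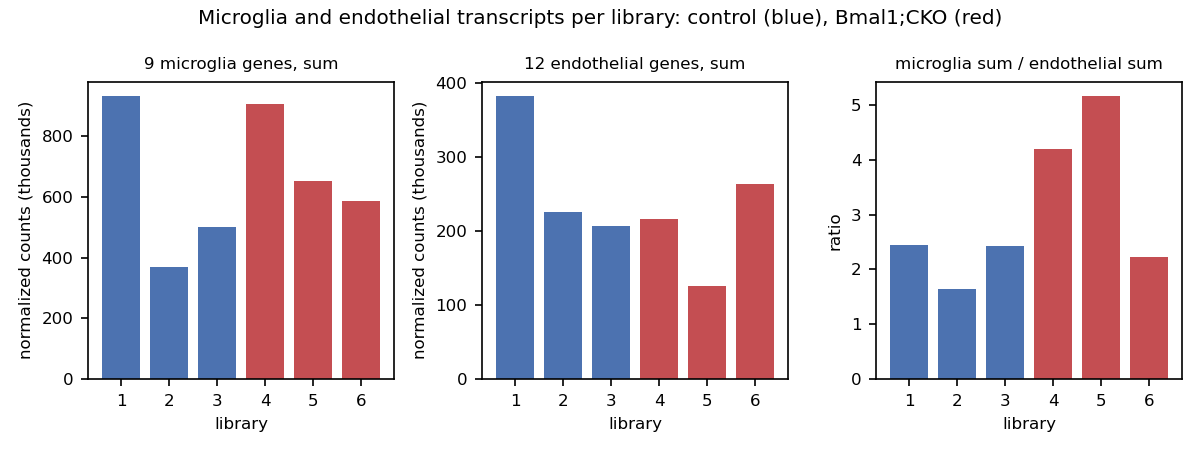
Summed normalized counts (divided by 1000) of the 9 homeostatic microglia genes and of the 12 endothelial genes, and the ratio of these sums, in each library, control in blue and Bmal1;CKO in red. The ratio is 1.64 to 2.44 in control and 2.23 to 5.17 in Bmal1;CKO.

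The plot of these sums shows the endothelial genes beside the microglial ones. All 12 endothelial genes had a fold change below 0, where 56.6% of all genes were above 0. These 12 are not independent observations. Their summed counts overlapped between the groups, at 206357 to 383183 in control and 126399 to 263619 in Bmal1;CKO. Their median was -0.50 on the log2 scale, and it was not recomputed with a library left out. By limma-trend 0 of 12 had an unadjusted p under 0.05, against 4.92% of all genes. The part of the endothelial share in the values of the microglia genes was not tested.

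Other homeostatic genes were examined to see whether the 9 stand for the wider programme. Of 20 listed, all were tested, the fold change was above 0 for 13 and below 0 for 7 with a median of 0.28 on the log2 scale, and 0 were past the adjusted threshold. That median was -0.04 without control library 2, 0.52 without control library 1 and 0.51 without control library 3. Fcrls and Selplg were among the most abundant per kb of exon, with log2 fold changes of 0.46 and 0.64. P2ry6, the UDP receptor that triggers phagocytosis, had 18392, 8993 and 19875 normalized counts in control and 34277, 28875 and 23863 in Bmal1;CKO. Every Bmal1;CKO library lay above every control library, with a log2 fold change of 0.95 (SE 0.35, limma-trend adjusted p = 0.883). Cd33, a sialic acid-binding inhibitory receptor, had 4538, 3807 and 5163 in control and 10644, 5498 and 6778 in Bmal1;CKO, also without overlap (log2 fold change 0.72, SE 0.31, limma-trend adjusted p = 0.883). In this list the groups did not overlap for 5 of 20 genes, against the 11.2% of all genes given above. P2ry6 and Cd33 are the 2 of 20 with an unadjusted p under 0.05, against 4.92% of all genes.

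Of 10 microglial transcription factors, 6 were higher and 4 lower, with a median of 0.43, which was -0.06 without control library 2, 0.81 without control library 1 and 0.25 without Bmal1;CKO library 4. Spi1, which encodes PU.1, had a log2 fold change of 0.55 (SE 0.51) and Irf8 0.60 (SE 0.36), both with a limma-trend adjusted p of 0.883. Cebpa, a myeloid factor, was the 1 of 10 with an unadjusted p under 0.05, against 4.92% of all genes. It was also the 1 of 10 without overlap of the groups, against 11.2% of all genes. It had 5561, 2580 and 4175 normalized counts in control and 7430, 6062 and 7184 in Bmal1;CKO, without overlap (log2 fold change 0.81, SE 0.32, limma-trend adjusted p = 0.883).

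Ligands of the receptors were measured in the same bulk libraries, which do not show the cell that a transcript came from. Of 8 ligand genes and their partners, 7 were higher and 1 lower, against 56.6% of all genes higher. An unadjusted p under 0.05 by limma-trend was reached by 0 of 8, against 4.92% of all genes. The median log2 fold change was 0.65, and it was 0.34 by edgeR, 0.35 without control library 1 and 0.36 without control library 2. Apoe, a TREM2 ligand, was the most abundant at 3972116 to 16583753 normalized counts, with a log2 fold change of 0.69 (SE 1.46). Nrros and Tgfb1 had log2 fold changes of 0.61 (SE 0.29) and 0.41 (SE 0.37). Il34, a CSF1R ligand, had 0 reads in control library 1 and 67.4 to 743 normalized counts in the other 5 libraries. Its log2 fold change was 1.32 (SE 2.18).

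Genes of the TREM2-TYROBP and CSF1R relay were higher in 13 of 14 cases, against 56.6% of all genes, with a median of 0.44, and 0 of 14 passed the adjusted threshold. Without control library 2 the median was 0.06, and without control library 3 it was 0.66. Laptm5 and Ptpn6 were among the most abundant, with log2 fold changes of 0.84 and 0.49. Inpp5d, the phosphatase SHIP1 that restrains this pathway, was the 1 of 14 with an unadjusted p under 0.05, against 4.92% of all genes. It was also the 1 of 14 without overlap of the groups, against 11.2% of all genes. It had 5052, 3144 and 5769 normalized counts in control and 9079, 6855 and 7342 in Bmal1;CKO, without overlap. Its log2 fold change was 0.77 (SE 0.30, limma-trend adjusted p = 0.883).

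Activated microglia genes showed no common direction. Of 14, 8 were higher and 6 lower, with a median of 0.03. The sign of that median turned with the setting, at -0.27 by edgeR, -0.26 by DESeq2, -0.18 without control library 2 and 0.41 without control library 1. Spp1, Ccl4 and Cd68 were the most abundant, with log2 fold changes of 0.15, 0.01 and 0.47. Clec7a, the beta-glucan receptor of activated microglia, was the 1 of 14 with an unadjusted p under 0.05, against 4.92% of all genes. It was also the 1 of 14 without overlap of the groups, against 11.2% of all genes. It had 3466, 1363 and 2344 normalized counts in control and 3837, 5368 and 4888 in Bmal1;CKO, without overlap (log2 fold change 1.06, SE 0.38, limma-trend adjusted p = 0.883).

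Markers of other blood-derived and border cells were examined as well. Of 10 border macrophage genes, 6 passed the filter, and Cd209f had 0 reads in all libraries. Lyve1, Cd163 and F13a1 had 0 reads in at least 1 library and did not pass. Pf4, Stab1 and Cd38 were the most abundant, and Pf4 (log2 fold change -1.01, SE 0.80) and Stab1 (0.22, SE 0.35) had groups that overlapped. Cd38 was the 1 of 6 with an unadjusted p under 0.05, against 4.92% of all genes. It was also the 1 of 6 without overlap of the groups, against 11.2% of all genes. It had 1219, 925 and 633 normalized counts in control and 284, 161 and 512 in Bmal1;CKO, without overlap (log2 fold change -1.64, SE 0.57, limma-trend adjusted p = 0.883). The sum over 12 monocyte, neutrophil and lymphocyte genes was 27.9 to 148 normalized counts in control and 49.2 to 221 in Bmal1;CKO, and Chil3, Ly6g and Ms4a1 had 0 reads in all 6 libraries, where a count of 0 allows up to 3 reads by counting error alone. Ccr2, S100a8, S100a9, Retnlg, Cd3e, Cd79a and Nkg7 were at 0 in at least 1 library, and Plac8, Cd79a and Ly6c2 had the highest levels of the list, at most 146 normalized counts in any library. Among these lists the levels were not uniformly low against the homeostatic genes. Stab1, at 1685 to 3525 normalized counts not scaled for length, overlapped the lower part of the range of Sall1 (2273 to 8058).

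**Figure D5:**
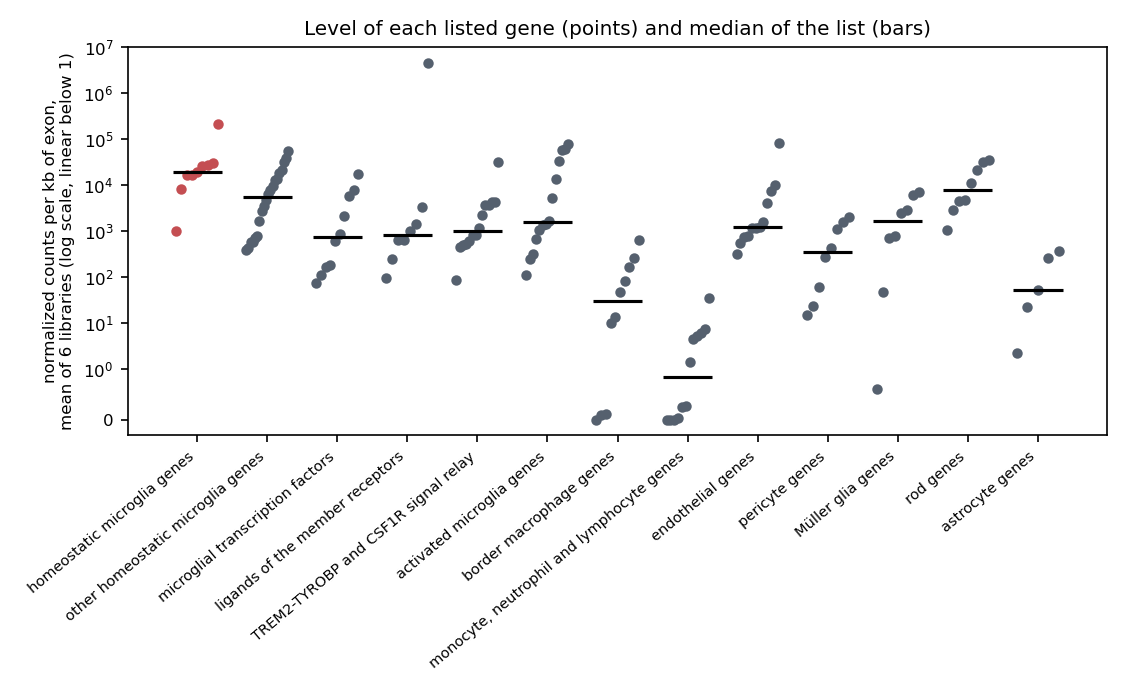
Mean normalized counts per kb of exon over 6 libraries (log scale, linear below 1) for each gene of each list, with the median of the list as a bar. The 9 homeostatic genes have a median of 18860, the 12 endothelial genes 1190, and the 12 monocyte, neutrophil and lymphocyte genes 0.838.

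The plot of levels by list places the median of the microglia genes above that of the endothelial genes, for which the cells were sorted. Sall1, at 963 normalized counts per kb of exon, was below the endothelial median of 1190. Glial and neuronal genes of the retina were present too, with log2 fold changes that had a median of 0.48 for 7 tested Müller glia genes, -0.26 for 8 rod genes, -0.08 for 8 pericyte genes and 0.34 for 4 astrocyte genes. Sox9, of the Müller glia, had an unadjusted p under 0.05 and was 1.33 higher on the log2 scale (limma-trend adjusted p = 0.883). The rod genes Cnga1 and Rcvrn were the other 2 of these lists with an unadjusted p under 0.05, both below 0. The share of all genes with such a p was 4.92%. Among the most abundant genes of these lists were Vim, Rlbp1 and Dkk3 for Müller glia, Rcvrn and Nr2e3 for rods, Vtn, Kcnj8 and Rgs5 for pericytes and Gfap, S100b and Pdgfra for astrocytes. Aqp4, Abcc9 and Pax2 had 0 reads in at least 1 library. The part of these cell types in the values of the homeostatic genes was not tested.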

How the data were processed

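RNA of VECs sorted from P7.5 retinas was amplified and sequenced for 3 control and 3 Bmal1;CKO samples. Reads were processed by the authors with Trimmomatic, Bowtie (mm10) and featureCounts. The authors deposited a signal per gene and library, which is the read count after division by a size factor from DESeq2. Versions and the use of strand are not given in the sources used here. The deposited table also holds the authors' log2 fold change with its standard error, Wald score, p-value and adjusted p-value, which were not used. Amplification of small RNA inputs and the division by size factors can shift genes of one library together, and the scaling alternatives bear on this.

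Dividing every column by the value of 1 read recovered integers for 100% of values (tolerance 0.01) and size factors of 0.711 to 1.40. Columns name only the genotype, and their numbers differ from those of the samples, so each column was a replicate of its group. The study's methods give 3 animals per group. The labels do not say whether each sample is a separate animal, and p-values then measure only the spread between these libraries. Genes reaching 10 reads in 3 or more libraries were tested with limma-trend (limma 3.58.1, R 4.3.3) on log2(normalized count + 1), genotype as the only term, two-sided, with Benjamini-Hochberg adjustment over all 20459 genes. Fold changes are on that scale. Single values had a two-sided exact permutation test. On the recovered reads, edgeR 4.0.16 and DESeq2 1.42.0 were alternatives. The script was tested on simulated data.

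Coordinates, exon lengths and principal transcripts came from GENCODE M21 on GRCm38, which held 55141 of the 55487 identifiers. Promoters came from RefSeq. The members and lists were chosen with earlier results of these data known. Genes named from each list are those with an unadjusted p under 0.05, the 3 of highest level per kb of exon and those at 0 reads in a library, with the 10 genes most alike to the mean of the members. Some genes that this rule names are not reported here. Other alternatives were the pseudocount, the filter, the scaling, each library left out and, added after seeing the data, a correction for exon length.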

Additional observations from a re-analysis of the deposited data

How the results depend on the processing

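No homeostatic gene passed an adjusted p of 0.05 under any setting run. Over 99 values with all libraries, adjusted p was 0.813 to 1.00 and 3 changed sign: scaled to the other homeostatic microglia genes, P2ry12 was -0.081 and Tyrobp -0.15, and by edgeR Tyrobp was -0.0040. Over 54 values with a library left out, adjusted p was 0.528 to 0.999 and 7 changed sign. These were Tmem119 (-0.24), Sall1 (-0.090) and Tyrobp (-0.02) without control library 2, Tyrobp without control library 3 (-0.28) or Bmal1;CKO library 4 (-0.25), and Aif1 without control library 1 (0.39) or Bmal1;CKO library 6 (0.08). Leaving out a library gave -0.24 to 0.63 for Tmem119, -0.090 to 0.82 for Sall1, -0.28 to 0.62 for Tyrobp and -0.69 to 0.39 for Aif1. The median of the 9 was 0.10 scaled to the other homeostatic genes, 0.18 by edgeR and by DESeq2, 0.27 after the length correction, which was chosen after seeing the data, and 0.05 to 0.66 with a library left out. The median of all tested genes moved from 0.11 to -0.03 by edgeR and by DESeq2, and to -0.15 scaled to the other homeostatic genes.

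Genes called at an adjusted p under 0.05 numbered 0, but 67 by DESeq2, 61 by limma without the trend, 1 with all genes of at least 1 read, 1 with at least 10 reads in every library, and 0 to 6 with a library left out (6 without control library 1). Genes at an unadjusted p under 0.05 numbered 1007, and 318 (without Bmal1;CKO library 5) to 2332 (without control library 3) with a library left out, with 1746 without control library 1, 328 without Bmal1;CKO library 4 and 558 without Bmal1;CKO library 6. The causes were not tested. No paired analysis was possible because the columns name the genotype only and their numbers differ from those of the samples. Depth does not limit the 9 genes, each with at least 2449 reads in every library.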
